A study of Mus musculus with 6 samples.

Results

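The granins and the enzymes that cut and finish prohormones were followed in the jugular-nodose ganglia of mice, where the sensory neurons of the vagus nerve have their cell bodies. The 10 genes were taken by symbol from the 32719 genes of the count files, and each symbol stood on 1 gene. They were the granins Vgf, Scg2, Scg3, Scg5, Chga and Chgb and the processing enzymes Pcsk1, Pcsk2, Cpe and Pam. All 10 were among the 16019 genes tested, none of them through 1 group alone, since each had between 732 and 19802 counts in every library.

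RNA came from 3 treated and 3 control libraries of wild-type ganglia. Per the protocol, male C57BL/6J mice carried subcutaneous osmotic pumps for 2 weeks, either with S961, a peptide that blocks the insulin receptor, at 10 nmol per week in PBS, or with PBS alone. Animal age is not given, and nothing says whether the libraries of a group are separate animals, so the p-values measure the spread between these libraries only. Since S961 stands in the treatment label of the controls too, the split into treated and control rests on the titles. S961 was given to the whole animal, and insulin signalling inside the ganglia was not measured.

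Spinal cord is given as the source of every library, although other labels name the ganglia. The 6 spinal cord markers summed to 13.3, 12.9 and 15.8 CPM (counts scaled to the adjusted library size, per 1000000) in treated and 10.5, 12.4 and 13.8 CPM in control libraries, while 10 markers of nodose neurons summed to between 674 and 1943 CPM. Of the 6, Mog, Opalin, Olig1 and Olig2, which mark oligodendrocytes and their lineage, lay between 0 and 1.27 CPM in every library. The astrocyte genes Aqp4 and Gfap lay higher, Aqp4 between 9.62 and 12.8 CPM in all 6 libraries and Gfap at 0.803, 1.81 and 3.89 CPM in treated and 0.859, 0.653 and 0.675 CPM in control libraries. Treated libraries held 33522486, 27856590 and 12898607 gene counts and control libraries 17810346, 25749857 and 14844384. RNA integrity numbers are given as 6.6 to 9.1 for all libraries together and not by library. Treated replicate 3, the smallest library, stood apart. Its highest correlation with any other library was 0.944 across genes, which are not independent replicates, whereas each of the other 5 reached at least 0.987 with another library. Its fat cell markers summed to 496 CPM, against 8.20 to 58.7 CPM in the other treated libraries and 11.3 to 38.7 CPM in controls. Fold changes of the members, the lists and the list genes given with a fold change are also given without this library. Those of Gata2, Gata3, Npff and Vip are given with all 6 libraries only.

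Granins are acidic proteins that aggregate in the trans-Golgi network and help to form dense-core granules, the vesicles from which neurons and endocrine cells release peptides. Inside these granules, convertases cut peptide precursors at pairs of basic residues, a carboxypeptidase trims the basic residues left at the new end, and an amidating enzyme turns a terminal glycine into the amide that many peptides need for activity. Peptidergic vagal and spinal sensory neurons use this route for substance P and calcitonin gene-related peptide, and pancreatic beta cells cut and trim proinsulin with the same kinds of enzyme.

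In treated ganglia, Vgf stood 1.55-fold above controls, and Pcsk1, Scg2, Pam and Scg5 stood at 0.682, 0.675, 0.805 and 0.826 of the control level. For these 5 genes and for Cpe the 3 treated and 3 control values did not overlap, 2 genes lying above controls and 4 below. That is 6 of 10 members, where 14.7% of all tested genes did not overlap (7.07% above and 7.63% below). Chga, Chgb, Pcsk2 and Scg3 overlapped between the groups. With edgeR's quasi-likelihood test 0 of the 10 passed at an adjusted p of 0.05, as did 0% of all tested genes, where the smallest adjusted p was 0.179. At an unadjusted p under 0.05 edgeR had 4 of the 10 (Vgf, Pcsk1, Scg5 and Pam), against 6.67% of all tested genes. The DESeq2 Wald test called 1 member, Vgf (adjusted p = 0.0375), where it called 0.603% of the genes it tested, and limma-voom called 0 members and 0% of all genes, or 0 members and 0.0562% of all genes with sample weights.

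**Figure D1:**
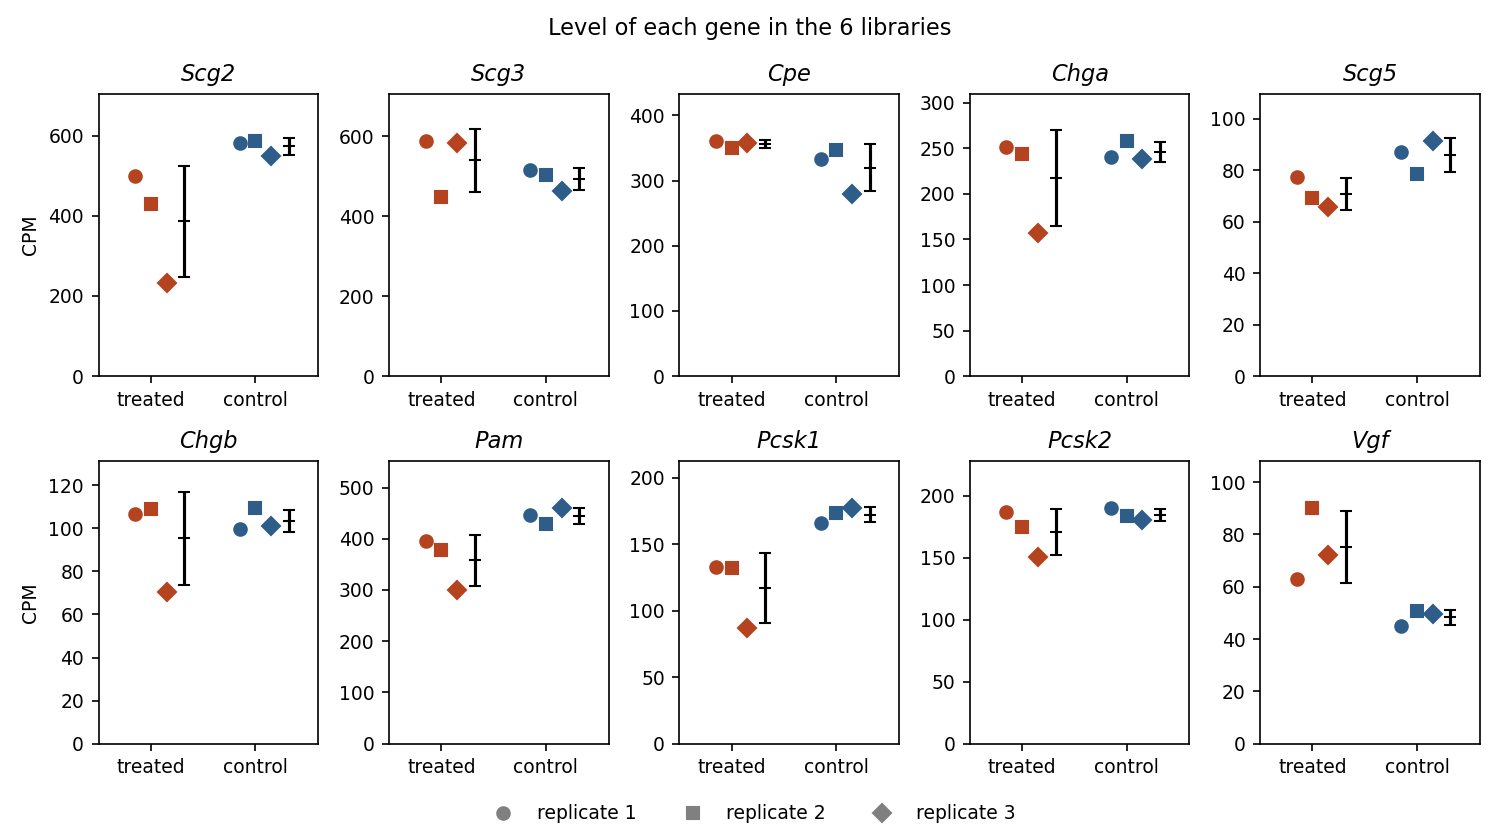
CPM (vertical axes, each from 0) of each of the 10 genes in 3 treated (left, red) and 3 control (right, blue) libraries, with symbols for the replicate and a black bar for the mean and SD. Vgf lies between 63.0 and 90.1 CPM in treated and between 45.2 and 50.6 CPM in control libraries, and treated replicate 3 (diamond) is the lowest of the 6 for 7 of the 10 genes.

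Levels between genes were compared per kilobase of exon. Every member was abundant: averaged over all 6 libraries, the 10 stood between percentile 86.1 (Vgf) and percentile 99.1 (Scg2) of the tested genes in CPM per kb. In treated ganglia the order was Scg3 (197 ± 28.9 CPM per kb, SD, n = 3), Scg2 (154 ± 55.0), Cpe (137 ± 2.28), Chga (78.9 ± 19.0), Scg5 (45.1 ± 3.87), Chgb (34.8 ± 7.89), Pam (30.1 ± 4.20), Vgf (25.3 ± 4.63), Pcsk2 (21.6 ± 2.34) and Pcsk1 (20.9 ± 4.69). In control ganglia it was Scg2 (228 ± 8.48 CPM per kb), Scg3 (180 ± 10.3), Cpe (123 ± 13.6), Chga (89.2 ± 3.98), Scg5 (54.6 ± 4.22), Chgb (37.7 ± 1.92), Pam (37.4 ± 1.34), Pcsk1 (30.7 ± 1.03), Pcsk2 (23.3 ± 0.615) and Vgf (16.3 ± 0.966). By these means Vgf was last of the 10 in controls and Pcsk1 last in treated ganglia. Among single treated libraries, Pcsk1 was last in treated replicate 3 only (15.5 CPM per kb). Vgf was last in treated replicate 1 (21.2 CPM per kb) and Pcsk2 in treated replicate 2 (22.1 CPM per kb). Among neighbours in the treated order, the ranges of mean ± SD overlapped for Scg3 and Scg2, for Scg2 and Cpe and at each step from Scg5 downwards. In controls they overlapped for Chgb and Pam only. Exon lengths were the union of all annotated transcripts, so a gene with a long union, such as Pam at 11892 bp, is placed lower than a shorter gene of equal CPM. Which isoforms the ganglia use was not measured.

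Promoter sequences from RefSeq (GRCm38.p6) were at hand for 8 of the 10 genes, in 9 promoters, and not for Vgf and Cpe. They are shown because several granin and convertase genes are known targets of cAMP signalling through the cAMP response element, whose full palindrome is TGACGTCA and whose half-site is TGACG. In the 250 bases before the start site, the full palindrome was found in 3 genes (Scg2, Chgb and Pcsk1) and at least the half-site, searched on both strands and counted also inside the full palindrome, in 7 of the 8. Over all 32851 mouse promoters in the table the shares are 1.55% and 17.8%. The TATA box letters TATAAA were in none of the 8, against 12.4% of all promoters. Each line gives 30 bases of the gene's own strand, 5′ to 3′, with the matched letters in capitals, first the full palindromes and then the half-sites of genes without one.
Scg2 (chr1:79440076-79440105, minus): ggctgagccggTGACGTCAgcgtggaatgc
Chgb (chr2:132781559-132781588, plus): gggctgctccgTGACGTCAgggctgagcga
Pcsk1 (chr13:75089768-75089797, plus): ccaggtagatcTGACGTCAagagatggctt
Chga (chr12:102554885-102554914, plus): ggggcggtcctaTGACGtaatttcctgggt
Scg3 (chr9:75684069-75684098, minus): gcgctgggtcgcTGACGccatcctcacgcc
Scg5 (chr2:113829249-113829278, minus): aaaggaggtaaaTGACGttcataggggtcg
Pcsk2 (chr2:143546087-143546116, plus): ctggcgggcgcgCGTCAcccgggctggcgc
The full palindromes began 68, 72 and 78 bases before the RefSeq start of Scg2, Chgb and Pcsk1. The 30 bases shown for Scg2 and for Chgb overlap, at least in part, a GENCODE exon of the same gene. A match is a description of the letters and not of binding, and Pam had neither form in the 250 bases searched.

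Vgf, the gene of a secreted granin that nerve growth factor induces and that is cut into several bioactive peptides, was the member with the smallest p and the 51st of all tested genes by p. It lies on chromosome 5, 137026392 to 137033351, plus strand (GRCm38). Its level was 63.0, 90.1 and 72.1 CPM in treated libraries, against 45.2, 50.6 and 49.5 CPM in control libraries. Treated replicate 2 was the highest, and the lowest treated library lay above the highest control. The log2 fold change was 0.63 ± 0.14 (SE), at an unadjusted p of 0.00196 and an edgeR adjusted p of 0.568. Leaving out treated replicate 3 gave 0.66 and leaving out treated replicate 2 gave 0.47. It was 0.73 when libraries were scaled to pan-neuronal genes, and its adjusted p ran from 0.0375 to 0.995 over all alternatives. Its share of the members' summed counts was 2.37%, 3.72% and 3.48% in treated libraries and 1.67%, 1.86% and 1.91% in controls.

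Scg2 encodes secretogranin II, the precursor of secretoneurin, and lies on chromosome 1, 79434669 to 79440120, minus strand. It had 499, 429 and 232 CPM in treated libraries, against 583, 587 and 548 CPM in control libraries. All treated values were below all controls, and treated replicate 3 was far below the rest. On the log2 scale it differed by -0.57 ± 0.26 (SE; edgeR adjusted p = 0.737), by -0.30 without treated replicate 3 and by -0.80 without treated replicate 1. The treated libraries spread 2.15-fold from lowest to highest for this gene, against 1.07-fold in the controls. Of the 12 pan-neuronal genes, 11 were also lowest of all 6 libraries in treated replicate 3, and Rbfox3 was highest there, at 131 CPM. In whole ganglia, fewer cells of a type and less RNA per cell cannot be told apart.

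Chga and Chgb, the chromogranins that make up much of the granule core in endocrine and chromaffin cells, overlapped between the groups. Chga had 252, 243 and 157 CPM in treated libraries, against 240, 258 and 239 CPM in controls. Chgb had 107, 109 and 70.5 CPM in treated libraries, against 99.6, 109 and 101 CPM in controls. For both genes treated replicate 3 was the only treated library outside the range of the controls. The log2 fold changes were -0.18 ± 0.17 for Chga and -0.11 ± 0.16 for Chgb (SE), and without treated replicate 3 they were 0.0099 and 0.06, of opposite sign. Sympathetic and glomus cells, which also hold chromogranins, had 9 markers that summed to 72.2, 65.6 and 45.7 CPM in treated and 106, 87.1 and 88.1 CPM in control libraries. Of the 7 tested, 2 had positive and 5 negative fold changes with a median of -0.43 on the log2 scale, and without treated replicate 3 the median was -0.23, with 3 positive and 6 negative of 9 tested. Their part in these results was not tested. None of the 9 was at 0 in all libraries. Dbh, which encodes the enzyme that makes noradrenaline, had 10.5, 5.36 and 1.19 CPM in treated libraries, against 26.2, 16.7 and 21.5 CPM in controls, without overlap. Its log2 fold change was -1.87 ± 0.65 (SE), at an unadjusted p of 0.0286 and an edgeR adjusted p of 0.723, and -1.43 without treated replicate 3. Th, the gene of the first enzyme of that route, had 46.1, 45.6 and 27.2 CPM in treated libraries, against 57.0, 52.4 and 51.5 CPM in controls. Hand2, a transcription factor gene of sympathetic neurons, was at 1.09 CPM or less in every library. The 2 tested markers with positive fold changes were Gata2 and Gata3, at 0.96 ± 0.46 and 0.72 ± 0.44 (log2, SE). Gata2 had 3.03, 4.17 and 10.0 CPM in treated libraries, against 2.58, 3.50 and 2.63 CPM in controls, with overlap. For cell type lists only totals were planned, so these single genes were named beyond the plan.

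Scg3 encodes a granule membrane granin that binds Chga protein and cholesterol. It had 589, 449 and 582 CPM in treated libraries, against 516, 502 and 462 CPM in controls. Treated replicate 2 was the lowest of the 6 libraries while the other treated libraries were the highest. The log2 fold change of 0.13 ± 0.13 (SE) was about as large as its error. Without treated replicate 3 it was 0.07, and with sample weights in limma-voom it was -0.0016.

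Scg5 encodes the small granin-like chaperone that the convertase encoded by Pcsk2 needs to mature. It had 77.4, 69.1 and 65.5 CPM in treated libraries, against 87.2, 78.4 and 91.4 CPM in controls. The groups did not overlap, but treated replicate 1 and control replicate 2 were close to each other. Its log2 fold change was -0.28 ± 0.10 (SE), at an unadjusted p of 0.0259 and an edgeR adjusted p of 0.721. Without treated replicate 3 it was -0.22, and scaled to pan-neuronal genes it was -0.19, where the groups overlapped.

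Among the enzymes, Pcsk1 had the largest fold change. It encodes prohormone convertase 1/3, which makes the first cuts in many precursors, proinsulin among them, and lies on chromosome 13, 75089826 to 75134861, plus strand. Pcsk1 had 133, 132 and 86.9 CPM in treated libraries, against 166, 174 and 177 CPM in controls. The controls lay close together, and each treated library was below them. The log2 fold change was -0.55 ± 0.16 (SE), at an unadjusted p of 0.01 and an edgeR adjusted p of 0.660. It was -0.38 without treated replicate 3, with an unadjusted p of 4.4e-04 and an adjusted p of 0.134, and -0.49 when scaled to pan-neuronal genes. It was negative in all 17 alternatives.

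Pcsk2 encodes the second neuroendocrine convertase, which often completes what the first begins. It had 187, 175 and 150 CPM in treated libraries, against 190, 184 and 180 CPM in controls. The groups overlapped, and the log2 fold change was -0.11 ± 0.10 (SE) and -0.03 without treated replicate 3. Pcsk2os1 and Pcsk2os2, antisense genes that are not among the counted genes, overlap its exons over 260 and 99 bp, and the strand setting of the counting is not given, so reads from either strand cannot be told apart here.

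Cpe encodes carboxypeptidase E, the trimming enzyme, which is also thought to help sort precursors into granules. It had 361, 350 and 358 CPM in treated libraries, against 333, 347 and 280 CPM in controls. Treated values barely cleared control replicate 2, the highest control, and with libraries scaled by total counts alone the groups overlapped. On the log2 scale the difference was 0.15 ± 0.11 (SE; edgeR adjusted p = 0.758), 0.15 without treated replicate 3 and 0.06 without control replicate 3. Cpe was the 1 member whose treated libraries lay closer together than its controls, 1.03-fold from lowest to highest against 1.24-fold.

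Pam encodes the amidating enzyme, peptidylglycine alpha-amidating monooxygenase, which uses copper, and lies on chromosome 1, 97795114 to 98095646, minus strand. It had 395, 377 and 301 CPM in treated libraries, against 446, 428 and 460 CPM in controls, without overlap. Pam differed by -0.31 ± 0.12 (SE) on the log2 scale, at an unadjusted p of 0.0332 and an edgeR adjusted p of 0.737, and it was -0.20 without treated replicate 3. B230216N24Rik, which is not among the counted genes, shares 188 bp of exon with Pam on the same strand.

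**Figure D2:**
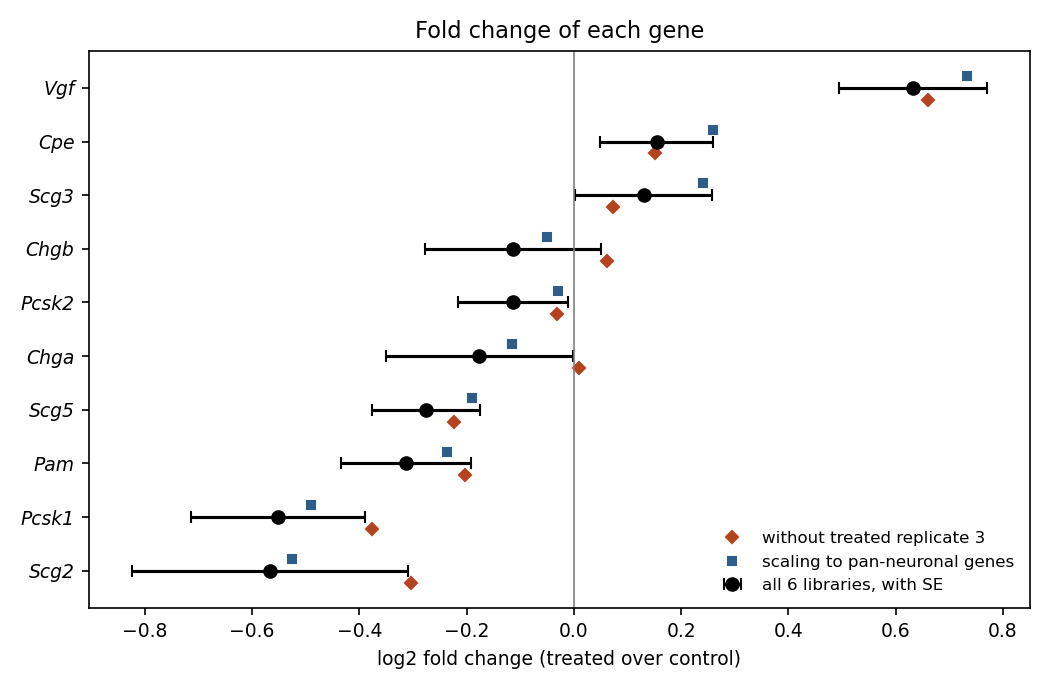
Log2 fold change, treated over control (horizontal axis), of each of the 10 genes from the edgeR fit with all 6 libraries (black, bars are SE), without treated replicate 3 (red diamonds) and with libraries scaled to pan-neuronal genes (blue squares). Vgf stays between 0.63 and 0.73 and Pcsk1 between -0.55 and -0.38, while Chga and Chgb cross 0 without treated replicate 3.

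Of the 10 genes, 3 lay above 0 and 7 below 0 on the log2 scale of the fold change, and their median was -0.15, against a median of 0.02 over all tested genes, of which 52.8% were positive and 47.2% negative. Without treated replicate 3 the median was -0.01, and scaled to pan-neuronal genes it was -0.08, a scaling under which the median of all tested genes was 0.11. Without treated replicate 3 the 6 genes that did not overlap were again Vgf and Cpe above and Scg2, Scg5, Pcsk1 and Pam below the controls, where 23.3% of all tested genes did not overlap. Under the pan-neuronal scaling Vgf, Scg2, Pcsk1 and Pam still did not overlap, 4 of the 10 against 11.6% of all tested genes, and Cpe and Scg5 did. The summed counts of the 10 made up 0.267%, 0.250% and 0.202% of all gene counts in treated libraries and 0.265%, 0.275% and 0.258% in controls.

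Treated replicate 3 held the lowest value of all 6 libraries for 7 of the 10 genes, where this was so for 36.9% of the 11817 tested genes at 5 CPM or more. Treated libraries spread further than controls for 9 of the 10, against 70.7% of those genes. The members' median ratio of highest to lowest library was 1.37 in treated and 1.09 in control ganglia, and over those 11817 genes it was 1.28 in treated and 1.17 in control ganglia. The summed level of 12 pan-neuronal genes was 12146, 11418 and 8458 CPM in treated libraries, against 11877, 11762 and 11016 CPM in controls. Treated replicate 3 was thus the lowest in this sum too, and the part this played in the members' values was not tested.

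**Figure D3:**
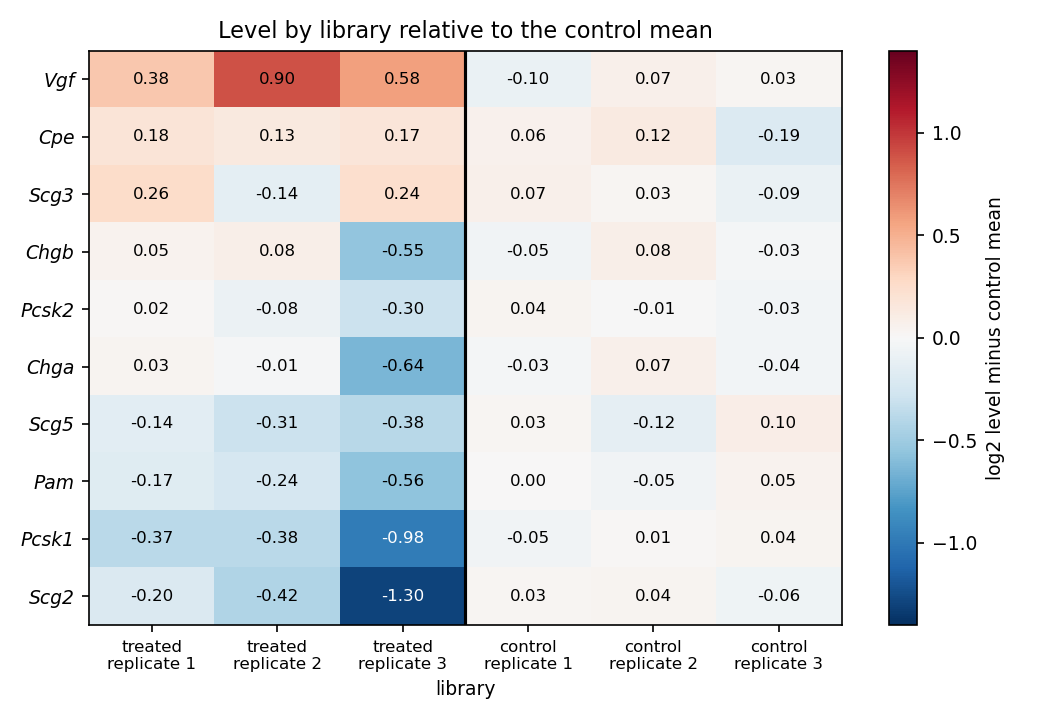
Log2 level (prior count 2) of each gene in each library minus the mean of the 3 control libraries, with treated libraries left of the line and control libraries right of it. Treated replicate 3 has the strongest blue cells, down to -1.30 for Scg2 and -0.98 for Pcsk1, while Vgf is positive in all 3 treated libraries.

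Ratios of counts within a library do not depend on how libraries are scaled, and 4 were compared. Pcsk1 counts per Pcsk2 count were 0.711, 0.758 and 0.578 in treated libraries, against 0.873, 0.944 and 0.982 in controls. The log2 difference was -0.46, and -0.34 without treated replicate 3 (exact permutation p = 0.1, the smallest that 2 against 3 can give). The ratio of Pcsk1 to Pcsk1n, which encodes proSAAS, a granin-like inhibitor of the Pcsk1 enzyme, was 0.432, 0.439 and 0.340 in treated libraries, against 0.496, 0.530 and 0.603 in controls. Here the log2 difference was -0.43, and -0.31 without treated replicate 3 (exact permutation p = 0.2). Pcsk1n itself had 307, 301 and 256 CPM in treated libraries, against 334, 328 and 294 CPM in controls, which overlap. Both of these ratios were lower in every treated library than in any control (exact 2-sided permutation p = 0.1 for each, the smallest that 3 against 3 can give, and 0.133 adjusted over the 4 ratios).

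The ratio of Pcsk2 to its chaperone gene Scg5 was 2.41, 2.53 and 2.29 in treated libraries, against 2.18, 2.34 and 1.97 in controls, with overlap (log2 difference 0.16 and, without treated replicate 3, 0.19, exact permutation p = 0.2, adjusted p = 0.2). Chga to Chgb was 2.36, 2.23 and 2.23 in treated libraries, against 2.41, 2.36 and 2.36 in controls. This last ratio was nearly constant across all 6 libraries, treated replicate 3 included, although the treated values were all the lower ones (log2 difference -0.07 and, without treated replicate 3, -0.05, exact permutation p = 0.1, adjusted p = 0.133).

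**Figure D4:**
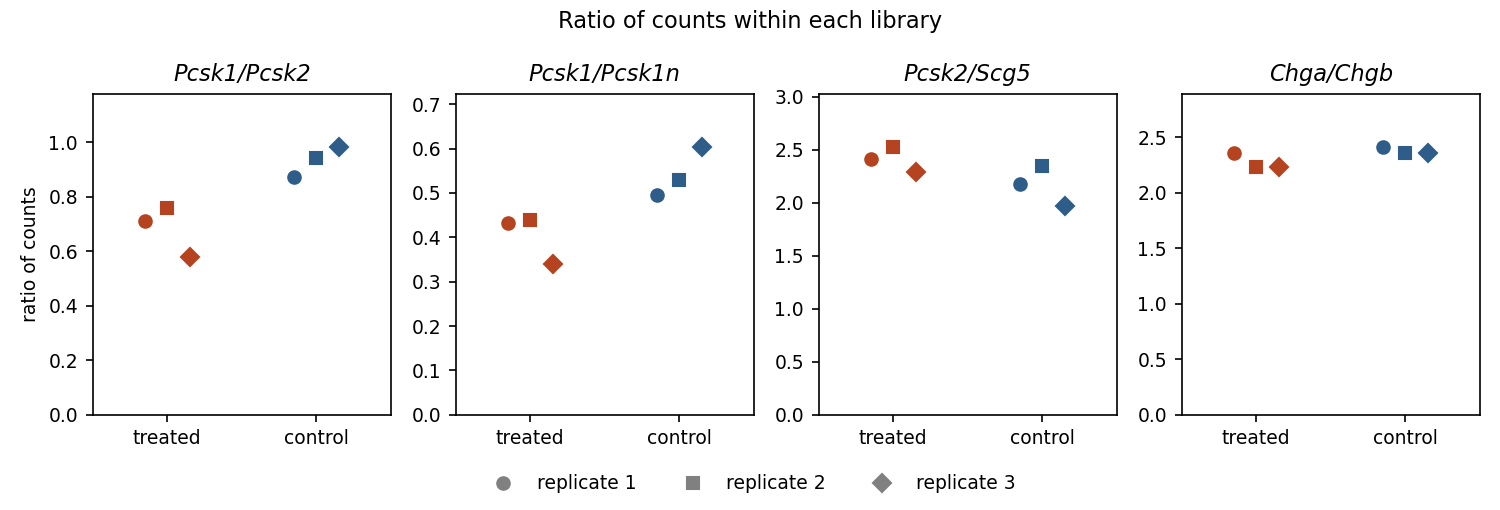
Ratio of raw counts of gene pairs (vertical axes, each from 0) within each of the 3 treated (left, red) and 3 control (right, blue) libraries, with symbols for the replicate. Pcsk1 per Pcsk2 lies between 0.578 and 0.758 in treated and between 0.873 and 0.982 in control libraries, while Chga per Chgb lies between 2.23 and 2.41 in all 6.

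Precursors that end as amidated peptides, the substrates of the Pam enzyme, were set beside it. Of 19 such genes 11 were tested, with 9 positive and 2 negative log2 fold changes and a median of 0.62, against 0.02 over all tested genes. This median is the value of Npff (0.62 ± 0.62, SE), a gene averaging 1.33 CPM in treated and 0.824 CPM in control libraries. Grp, Adm and Npy were also low, averaging 1.42, 1.66 and 0.269 CPM in treated libraries. None of the 11 passed at an edgeR adjusted p of 0.05. At an unadjusted edgeR p under 0.05 there were 5 of the 11 (4 higher, 1 lower), against 6.67% of all tested genes. The 4 were Gal, Tac1, Adcyap1 and Calca, and the 1 was Vip. Vip, Calca, Npff, Grp, Adm and Npy were named after their values were seen. Gal, the galanin precursor, had 29.2, 42.6 and 36.2 CPM in treated libraries, against 14.4, 18.4 and 20.9 CPM in controls (log2 fold change 1.01 ± 0.19, SE, and 1.00 without treated replicate 3).

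Tac1, the precursor of substance P, had 74.2, 43.3 and 85.7 CPM in treated libraries, against 33.4, 39.0 and 37.8 CPM in controls. Adcyap1, the precursor of the peptide PACAP, had 112, 110 and 86.3 CPM in treated libraries, against 70.0, 79.1 and 82.6 CPM in controls. Each of these 3 genes was without overlap. Calca, the calcitonin gene-related peptide gene, averaged 253 CPM in treated and 131 CPM in control libraries, with overlap (log2 fold change 0.95 ± 0.37, SE). Without treated replicate 3 its log2 fold change was 0.57, again with overlap and at an unadjusted edgeR p of 0.206. Vip, the 1 that was lower, averaged 18.5 CPM in treated and 31.8 CPM in control libraries (log2 fold change -0.78 ± 0.23, SE). The 19 precursors summed to 539, 381 and 659 CPM in treated libraries, against 276, 344 and 357 CPM in controls. Markers of jugular neurons, which are rich in Calca and Tac1, summed to 473, 287 and 572 CPM in treated and 250, 257 and 214 CPM in control libraries, in the same order over the treated libraries, and their part was not tested. The median log2 fold change of the jugular list was 0.99, and 0.68 without treated replicate 3. Without treated replicate 3 the median of the precursor list was 0.45, with 8 of 12 tested genes positive and 5 of the 12 at an unadjusted p under 0.05, against 7.94% of all tested genes.

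Other peptide precursors had 3 positive and 8 negative log2 fold changes among 11 of 19 tested and a median of -0.49, and 2 positive and 9 negative with a median of -0.40 without treated replicate 3. At an unadjusted p under 0.05 there were 1 higher and 2 lower of the 11, against 6.67% of all tested genes, and none passed after adjustment. Nts, the neurotensin precursor, had 7.89, 23.0 and 28.6 CPM in treated libraries, against 6.19, 3.39 and 5.14 CPM in controls. Cartpt, whose peptide marks many visceral vagal afferents, had 53.7, 51.3 and 34.3 CPM in treated libraries, against 70.3, 66.0 and 66.6 CPM in controls (log2 fold change -0.54 ± 0.16, SE, and -0.36 without treated replicate 3). Uts2b, a urotensin-related precursor, had 2.71, 3.38 and 0.318 CPM in treated libraries, against 5.45, 6.81 and 8.45 CPM in controls, and its log2 fold change without treated replicate 3 was -1.18.

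Cartpt thus stood near Pcsk1 and Pam, lower in each treated library and lowest in treated replicate 3. Markers of nodose neurons were lower in the same libraries, their 10 genes summing to 1383, 1409 and 674 CPM in treated and 1943, 1877 and 1910 CPM in control libraries, with all 10 log2 fold changes negative and a median of -0.75. Without treated replicate 3, in which all 10 were lowest, 9 of the 10 were negative and the median was -0.45. The part of this in the lower values of Pcsk1, Scg2, Pam and Cartpt was not tested.

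Of 7 genes for copper supply and for partners of the Pam protein, all 7 had a log2 fold change below 0. Their median was -0.11, and -0.03 when scaled to pan-neuronal genes, where 2 of them turned positive. That scaling moved the median of all tested genes from 0.02 to 0.11. Without treated replicate 3 the median of the 7 was -0.14, with 1 of the 7 positive. None passed after adjustment, and 1 had an unadjusted p under 0.05, against 6.67% of all tested genes. That gene was Atp7a. Atp7a, the pump that loads copper into the secretory pathway where the Pam enzyme takes it up, had 63.7, 63.0 and 39.5 CPM in treated libraries, against 91.1, 80.2 and 85.3 CPM in controls. Its log2 fold change was -0.62 ± 0.18 (SE), at an unadjusted p of 0.00943 and an edgeR adjusted p of 0.655, and -0.43 without treated replicate 3. Uhmk1 and Kalrn, a kinase and an exchange factor that bind the cytosolic tail of the Pam protein, were at -0.20 ± 0.13 and -0.23 ± 0.12, and at -0.07 and -0.14 without treated replicate 3.

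Other convertases and trimming enzymes had 14 positive log2 fold changes among 14 of 15 tested, with a median of 0.24, and 11 of 14 were positive with a median of 0.10 without treated replicate 3. None passed after adjustment, and 1 of the 14 had an unadjusted p under 0.05, against 6.67% of all tested genes. That gene was Ctsl, a lysosomal protease that in mice also cuts neuropeptide precursors, with 354, 256 and 391 CPM in treated libraries, against 248, 262 and 267 CPM in controls. Treated replicate 2 was within the control range, and without treated replicate 3 the log2 fold change of Ctsl was 0.24, at an unadjusted p of 0.113. The convertase gene Pcsk6 was at 0.86 ± 0.47, and at 0.40 without treated replicate 3. Macrophage markers, of cells rich in cathepsins, summed to 38.6, 70.9 and 253 CPM in treated and 43.0, 31.3 and 71.6 CPM in control libraries, and their part was not tested.

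Of 17 genes for granin partners and granule biogenesis, all tested, 8 lay above 0 and 9 below 0 on the log2 scale, and the median was -0.06. Its sign differed without treated replicate 3 (0.06) and under the pan-neuronal scaling (0.02), where the median of all tested genes was 0.11. At an unadjusted p under 0.05 there were 2 higher and 0 lower of the 17, against 6.67% of all tested genes, and none passed after adjustment. Rph3a, an effector of Rab3 on secretory vesicles, had 322, 230 and 344 CPM in treated libraries, against 200, 198 and 146 CPM in controls (log2 fold change 0.72 ± 0.18, SE, and 0.61 without treated replicate 3). Syt7, a high-affinity calcium sensor for vesicle release, had 215, 134 and 253 CPM in treated libraries, against 137, 123 and 91.3 CPM in controls, where treated replicate 2 overlapped. Its log2 fold change was 0.77 ± 0.25 (SE, unadjusted p = 0.0189), and 0.57 without treated replicate 3 (unadjusted p = 0.121), so that 1 gene of the list was left higher at that threshold. The sorting receptor gene Sorl1 was at 0.24 ± 0.12, and at 0.22 without treated replicate 3. Both Rph3a and Syt7 were highest in treated replicates 1 and 3, as were Tac1 and the jugular markers.

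**Figure D5:**
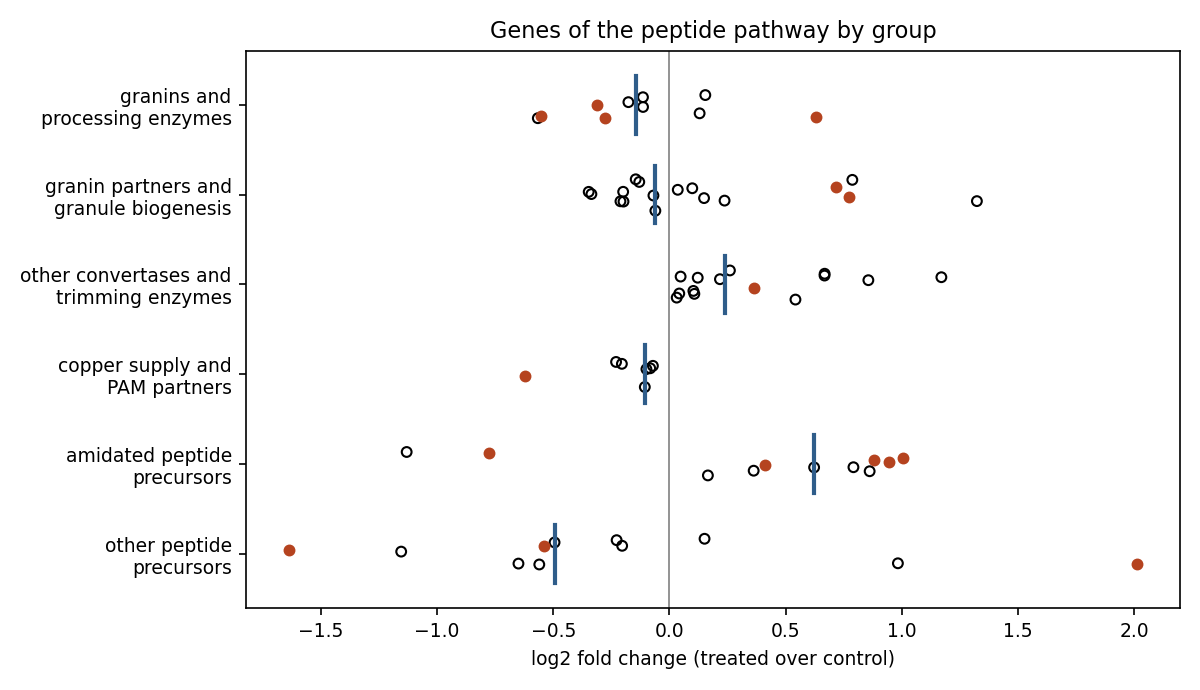
Log2 fold change, treated over control (horizontal axis), of each tested gene of 6 groups of the peptide pathway. Filled red points have an unadjusted edgeR p under 0.05 and open points do not. Blue bars are medians, from 0.62 for amidated peptide precursors to -0.49 for other precursors, with -0.15 for the 10 granins and processing enzymes. The 0.62 is the value of Npff, a gene of low counts. Vertical scatter within a row has no meaning.

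The gene most like each of the 4 members with an unadjusted p under 0.05 was sought among 11816 genes at 5 CPM or more, by the root mean square distance between log2 profiles over the 6 libraries after centring. Bach1, a transcriptional repressor, was nearest to Vgf at 0.06. St18, a zinc finger gene, was nearest to Pcsk1 at 0.03. Manf, which encodes a protein secreted under endoplasmic reticulum stress, was nearest to Scg5 at 0.03, and Nalcn, a sodium leak channel gene, was nearest to Pam at 0.02. The median distance of all genes was 0.39 for Vgf, 0.37 for Pcsk1, 0.22 for Scg5 and 0.24 for Pam. St18 had 63.1, 62.3 and 41.2 CPM in treated libraries, against 82.3, 81.2 and 83.7 CPM in controls, the same steps as Pcsk1. The likeness is a description of these 6 libraries.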

How the data were processed

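The authors deposited 1 file of raw exonic read counts per gene for each of the 6 libraries, and the submitters' processing notes name STAR 2.7.7a, bcl2fastq 2.20, edgeR and DESeq2, with mm10 as the build. How reads were counted, with which annotation and strand setting, is not given in the sources used here. About 6 ng of RNA went into each strand-specific library, per the labels' protocols. Symbols came from the files, and positions and exon lengths from GENCODE M21 (GRCm38, as mm10), which held 32663 of the 32719 genes. The files' summary lines were left out.

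Counts were fitted over all genes with edgeR 4.0.16 under R 4.3.3 (filterByExpr with a minimum count of 10, scaling by the trimmed mean of M values, robust quasi-likelihood F test), with Benjamini-Hochberg adjustment over all 16019 genes and a threshold of 0.05. CPM are counts per 1000000 counts of the scaled library size. A fold change is treated over control, and its SE was derived from the F statistic. The 17 alternatives, among them DESeq2 1.42.0 and limma 3.58.1, are covered in the closing section. The edgeR step was tested on simulated data.

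The members, gene lists, tests and alternatives were chosen with earlier results of these data known. Named are all 10 members, the 3 genes of smallest p in each of 5 pathway lists (1 of them is not reported here), Pcsk1n, and 1 nearest profile for members of smallest p, besides cell type markers and genes marked as chosen after their values were seen. Every member had at least 732 counts in each library, so the spread between libraries, not counting error, limits precision.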

Additional observations from a re-analysis of the deposited data

How the results depend on the processing

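Over the 17 alternatives the direction of Vgf, Scg2, Scg5, Pcsk1, Pcsk2, Cpe and Pam held, and that of Scg3, Chga and Chgb did not. Scg3 was at -0.0016 and Chgb at 0.036 with sample weights in limma-voom, and leaving out 1 library gave -0.30 to 0.0099 for Chga and -0.23 to 0.0614 for Chgb, the positive values being those without treated replicate 3. The number of all genes called, 0 in edgeR, was 26 without the low-count filter, 96 with the DESeq2 Wald test, 9 with sample weights in limma-voom, and 0 to 9 when 1 library was left out. The number of members called was 1 with the DESeq2 Wald test (Vgf) and 0 otherwise. Members with an unadjusted p under 0.05 numbered 4, where 6.67% of all genes had such a p. They numbered 2 to 5 when 1 library was left out, given here with the share of all genes in brackets. There were 5 without treated replicate 1 (10.8%) or 3 (7.94%) and 3 without control replicate 2 (6.25%). There were 2 without treated replicate 2 (7.02%), control replicate 1 (3.51%) or control replicate 3 (3.27%). The count did not follow this share throughout, since without treated replicate 2 it fell while the share rose. There were 5 with the DESeq2 Wald test (5.37%), limma-voom (5.58%) and limma-voom with sample weights (11.2%), and 3 with scaling by total counts alone (6.39%). The DESeq2 share was over 27580 genes without the low-count filter, whereas the other 3 shares were over 16019 filtered genes, so it is not directly comparable. The causes of these shifts were not tested, although leaving out a library also leaves fewer samples. List medians and list genes without treated replicate 3 and under the pan-neuronal scaling were alternatives chosen after seeing the data.

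With the replicate number as a block, 1 gene was called in place of 0, and no member (Vgf at 0.62 with an adjusted p of 0.298, Pcsk1 at -0.58 with 0.421). Members with an unadjusted edgeR p under 0.05 were then 5 in number, against 9.43% of all genes, and the one added was Scg2. Its unadjusted edgeR p was 0.0195 and its adjusted p 0.461. The correlations of deviations between same-numbered libraries over genes were 0.01, 0.58 and 0.52. Treated replicates 2 and 3 correlated best with the control of their own number, and treated replicate 1 with control replicate 2 (0.25). Since not every pair was over 0.1 and no label says what a number shares, the numbers were not used as pairs, and whether they mark shared material is not settled.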
